A study of Mus musculus with 56 samples.

Results

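Collagens, laminins, fibrillins, lysyl oxidases and Adamts proteases build, cross-link and trim the fibrous extracellular matrix. Of the H2A.Z peaks named for their genes, 50 were lower after RNase H1 induction and 0 were higher. Nearly all listed changes of the series were in that direction, with 9077 peaks lower and 318 higher. These 50 peaks, of 9395 listed as lower or higher, are those for which the authors' annotation names a gene whose symbol begins Col with a chain number, Lox or Loxl, Fbn, Lam with a chain letter, or Adamts with a number. They name 38 genes. Since the members were taken from the lists of changed peaks, that they are lower is no finding, and the account below turns on where the peaks lie and on the unlisted peaks of the same genes.

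The study used CUT&Tag, in which an antibody guides a transposase to chromatin, on mouse embryonic stem cells of the line RHKI(E14Tg2a) with a knock-in of HA-tagged Rnaseh1 inducible by doxycycline. RNase H1 removes the RNA of RNA:DNA hybrids, and the question was where the histone variant H2A.Z changes once it is induced. The control group (4 libraries) and the Dox group (4 libraries, 500 ng/ml doxycycline for 48 hours) carry the same knock-in and share a 2i/LIF medium in which PD0325901 was at 1 µM, CHIR-99021 at 3 µM and serum (FBS) at 2%. The control group has no doxycycline in its label, and a line called ZX-1, named in the design text, is in no sample label. No group without the knock-in is analysed here, so an effect of doxycycline itself cannot be told apart from that of RNase H1. The files give 61420 H2A.Z peaks on GRCm38 and 2 lists of changed peaks with gene annotation. The files give neither the size of a change nor a level in any library, so the spread between replicates and the depth are unknown, and lower is read from the name of the list as Dox against control.

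As background, fibrillar collagens assemble into the cable-like fibrils of bone, skin and tendon, whereas collagen IV and laminins form the sheet-like basement membranes on which epithelia rest. FACIT collagens decorate fibrils, lysyl oxidases cross-link collagen and elastin, fibrillins form microfibrils, and secreted Adamts proteases trim procollagen and proteoglycans. Early endoderm makes basement membrane, and most fibrillar collagens are switched on later, in mesenchyme and its derivatives. H2A.Z sits beside transcription start sites (TSSs) and enhancers, at active and at poised genes alike.

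The promoters of 6 genes with a lower peak over the TSS and of 2 fibrillar collagen genes without one show what kind of sequence the peaks lay on. Each run has 300 bases, 250 before the TSS and 50 from it on, and comes from RefSeq (GRCm38.p6), 5′ to 3′ on the strand of the gene. Capitals mark GC boxes (GGGCGG, or CCGCCC on the other strand), CCAAT boxes (CCAAT or ATTGG) and the TATA motif (TATAAA or TTTATA), and overlapping matches were counted. Col1a2 (chr6:4505368-4505667, plus strand), Col5a1 (chr2:27886175-27886474, plus), Col5a3 (chr9:20815018-20815317, minus) and Col27a1 (chr4:63215162-63215461, plus) are the fibrillar genes with a lower TSS peak.
Col1a2: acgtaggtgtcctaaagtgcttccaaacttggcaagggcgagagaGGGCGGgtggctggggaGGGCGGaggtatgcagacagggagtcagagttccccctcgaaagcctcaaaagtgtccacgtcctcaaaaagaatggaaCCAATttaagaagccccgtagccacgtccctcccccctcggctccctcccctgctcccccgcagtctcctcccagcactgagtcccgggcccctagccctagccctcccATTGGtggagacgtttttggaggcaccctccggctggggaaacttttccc
Col5a1: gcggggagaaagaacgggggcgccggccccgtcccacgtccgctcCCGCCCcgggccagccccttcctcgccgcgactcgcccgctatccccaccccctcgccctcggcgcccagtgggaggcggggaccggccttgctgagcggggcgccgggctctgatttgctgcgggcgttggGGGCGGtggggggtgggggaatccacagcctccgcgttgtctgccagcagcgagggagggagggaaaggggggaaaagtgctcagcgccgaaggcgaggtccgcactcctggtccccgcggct
Col5a3: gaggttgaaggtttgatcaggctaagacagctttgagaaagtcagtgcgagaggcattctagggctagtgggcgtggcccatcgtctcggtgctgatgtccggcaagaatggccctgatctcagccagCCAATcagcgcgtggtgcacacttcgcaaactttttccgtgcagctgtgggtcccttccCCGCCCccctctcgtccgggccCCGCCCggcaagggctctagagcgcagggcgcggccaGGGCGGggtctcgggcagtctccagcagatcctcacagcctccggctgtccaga
Col27a1: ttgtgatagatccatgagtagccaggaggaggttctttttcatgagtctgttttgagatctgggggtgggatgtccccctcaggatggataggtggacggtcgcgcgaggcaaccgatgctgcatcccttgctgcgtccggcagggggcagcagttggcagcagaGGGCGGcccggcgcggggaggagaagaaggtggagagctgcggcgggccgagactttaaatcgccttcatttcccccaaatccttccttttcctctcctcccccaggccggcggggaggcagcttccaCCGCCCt

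Col4a1 (chr8:11312777-11313076, minus) is printed for the basement membrane and Fbn1 (chr2:125506389-125506688, minus) for microfibrils. The TSS of Col4a2, on the opposite strand, is 21 base pairs from that of Col4a1, and the windows of the pair share 78 base pairs.
Col4a1: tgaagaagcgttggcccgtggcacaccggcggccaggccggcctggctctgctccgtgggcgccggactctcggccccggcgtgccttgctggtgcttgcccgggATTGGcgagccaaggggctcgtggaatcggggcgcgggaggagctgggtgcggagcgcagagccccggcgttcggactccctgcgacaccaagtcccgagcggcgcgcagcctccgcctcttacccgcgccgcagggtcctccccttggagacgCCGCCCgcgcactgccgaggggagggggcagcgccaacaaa
Fbn1: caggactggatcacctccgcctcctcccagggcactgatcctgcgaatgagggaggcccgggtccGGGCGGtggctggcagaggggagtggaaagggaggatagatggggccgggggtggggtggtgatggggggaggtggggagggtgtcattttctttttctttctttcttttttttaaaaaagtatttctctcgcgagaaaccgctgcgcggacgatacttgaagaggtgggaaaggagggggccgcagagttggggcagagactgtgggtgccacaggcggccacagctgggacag

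For contrast, the Col3a1 window (chr1:45311288-45311587, plus) has no H2A.Z peak within 1 kb of its TSS, and the Col24a1 window (chr3:145292222-145292521, plus) has one in neither list. Col3a1 holds 0 CpG dinucleotides and 1 TATA motif, and Col24a1 holds 6 CpGs and none of the 3 motifs. The 6 windows with a lower peak hold 13 (Col1a2), 34 (Col5a1), 20 (Col5a3), 18 (Col27a1), 37 (Col4a1) and 14 (Fbn1) CpGs. The printed pair without a lower peak is the poorest in CpG among the fibrillar windows. Of those not printed, Col11a2, with no peak, holds 16 CpGs and 2 GC boxes, and Col11a1, with an unlisted one, holds 9 CpGs and 2 GC boxes, so the numbers overlap.
Col3a1: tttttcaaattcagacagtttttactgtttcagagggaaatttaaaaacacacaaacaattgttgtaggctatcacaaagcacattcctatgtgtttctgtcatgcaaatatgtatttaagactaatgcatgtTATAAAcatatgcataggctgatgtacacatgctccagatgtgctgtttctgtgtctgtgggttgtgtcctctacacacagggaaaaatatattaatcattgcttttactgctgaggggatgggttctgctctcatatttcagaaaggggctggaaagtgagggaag
Col24a1: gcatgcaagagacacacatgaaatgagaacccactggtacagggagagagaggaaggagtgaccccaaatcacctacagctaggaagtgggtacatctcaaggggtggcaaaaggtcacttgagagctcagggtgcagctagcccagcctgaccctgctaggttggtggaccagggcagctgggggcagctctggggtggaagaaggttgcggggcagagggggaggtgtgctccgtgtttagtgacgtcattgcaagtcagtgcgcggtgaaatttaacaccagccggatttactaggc

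Among the fibrillar collagens, lower H2A.Z lay at the promoter of 4 genes of 11, deeper inside 1 of these, and outside the gene for 2 more. Of the 10 fibrillar genes with a peak inside or within 1 kb, 4 held a lower one (40%, 95% exact interval 12.2 to 73.8%). The share over protein-coding genes with a peak was 38.2%, so the fibrillar share was near the background. Col1a2, which encodes the second chain of collagen I, the main protein of bone and skin, had a lower peak of 1552 base pairs centred 22 base pairs before the TSS (chromosome 6, 4504821 to 4506372), and it was the only peak of that gene. Col5a1, whose product limits fibril diameter, likewise had 1 peak, lower, of 1834 base pairs at +49 (chromosome 2, 27885558 to 27887391). Col27a1, a collagen of growing cartilage, had 1 peak, lower, of 2873 base pairs at −116 (chromosome 4, 63213860 to 63216732). At Col5a3 the lower promoter peak had 501 base pairs, which is the narrowest width that occurs (chromosome 9, 20814741 to 20815241). A second lower peak of 630 base pairs near the other end of Col5a3 was named for Olfm2 by the annotation, and its 2 remaining peaks were in neither list.

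The other fibrillar genes had no lower peak inside the gene. At Col1a1, the other chain gene of collagen I, the peak at +1291 base pairs (1615 base pairs wide) was in neither list, and the lower peak named for the gene was an intergenic one of 501 base pairs at −5918. Col5a2 had 2 peaks and 0 lower. Col3a1 had 2 (the nearer at +3457 base pairs), Col2a1, the collagen of cartilage, had 3, and Col24a1 had 9, none of them lower. Col11a1 had an unlisted peak of 2967 base pairs at +437, and its named lower peak lay 248 kb from the TSS, beyond the end of the gene, in an L1Md_A element. Col11a2 had no peak. The absence of a listed call does not show that H2A.Z was unchanged there, since no value per library is given.

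Enzymes that trim and cross-link fibrillar collagen followed no single pattern. Of the procollagen N-propeptidase genes, Adamts2 had a lower peak of 2727 base pairs at +738 (chromosome 11, 50601460 to 50604186) and Adamts3 one of 1746 at +408 (chromosome 5, 89882054 to 89883799). At Adamts14, the third of them, the TSS peak of 3899 base pairs was unlisted and 3 of 5 peaks inside the gene were lower. Those 68.8 and 72 kb into the gene were named for Tbata, and that at 27.3 kb for Adamts14. Adamts2 held 9 peaks, 4 of them lower, and the 3 beyond its TSS lay 190, 194 and 201 kb into the gene and were named for Zfp354c. Lox, the founding lysyl oxidase, had a lower peak of 1673 base pairs at +613 (chromosome 18, 52528272 to 52529944). Loxl1, needed for elastic fibres, had both of its peaks lower, at +814 and +16997 base pairs. Loxl4 had a lower peak in exon 7 of 15 with an unlisted TSS peak of 1024 base pairs. At Loxl3 a lower peak of 2113 base pairs at one end of the gene was named for Dok1, and Loxl2 had no peak. All 4 lysyl oxidase genes that held any peak thus held a lower one by place (100%, 95% exact interval 39.8 to 100%), against 38.2% of protein-coding genes with a peak, but that of Loxl3 was not assigned to it.

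**Figure D1:**
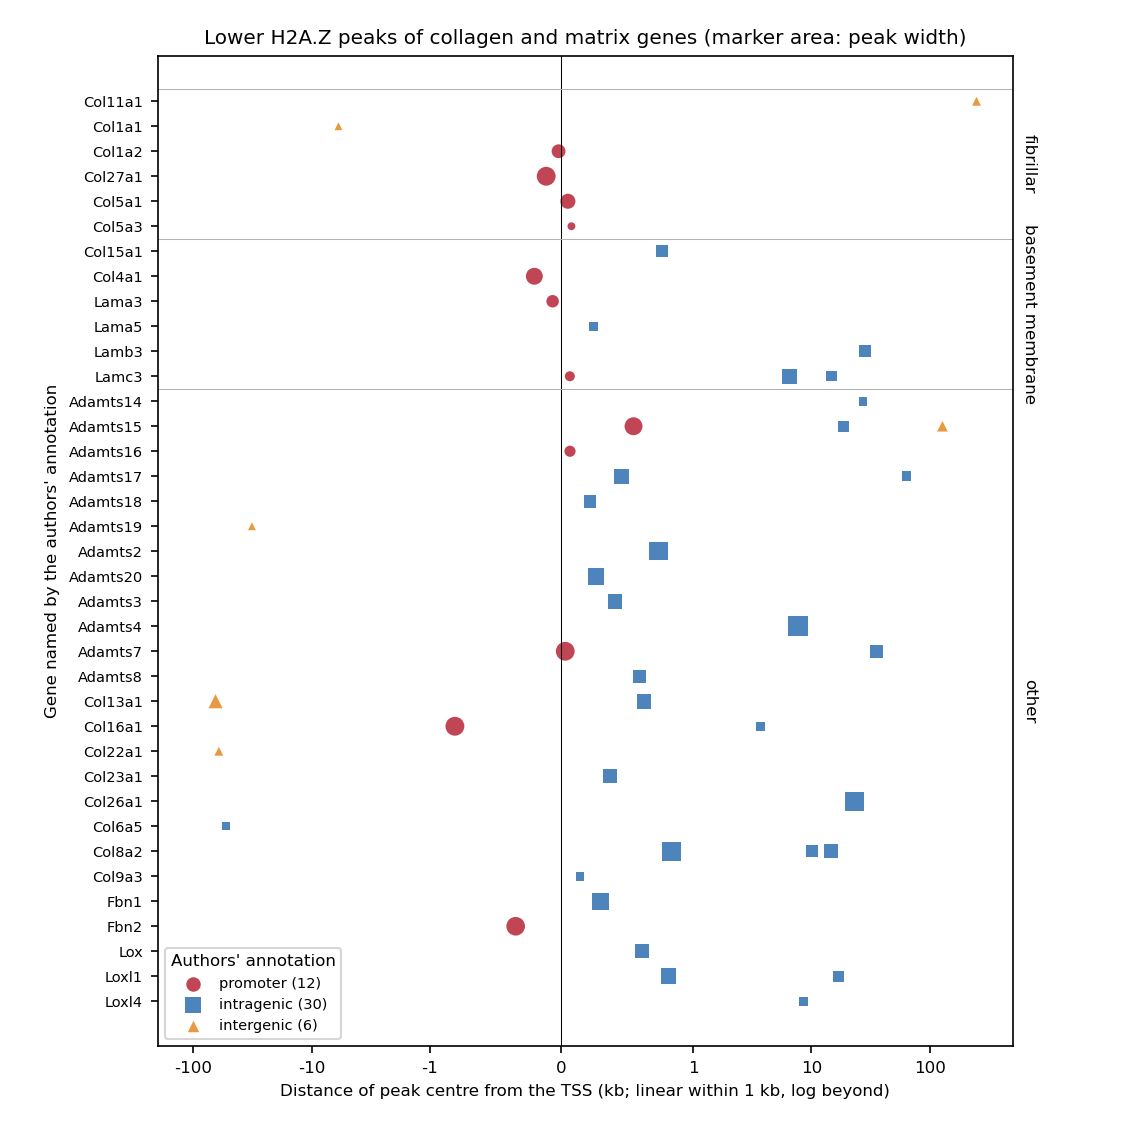
Each marker is 1 of 48 lower peaks, placed by its distance from the TSS (kb, linear within 1 kb and logarithmic beyond) on the row of the gene that the authors' annotation names; colour and shape give the annotation class and marker area the width. The 12 promoter peaks and 15 of the 30 intragenic ones drawn lie within 1 kb of the TSS, while the 6 intergenic peaks drawn lie at up to 248 kb.

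In the basement membrane group, collagen IV showed 1 lower peak, and it covers 2 genes. Collagen IV genes lie in head-to-head pairs, and the lower peak of 2305 base pairs (chromosome 8, 11311880 to 11314184) was centred 206 base pairs before the TSS of Col4a1 and 227 base pairs after that of Col4a2, which encode the chains found in nearly every basement membrane. The peak over the shared start of Col4a3 and Col4a4 (1562 base pairs) and that between Col4a5 and Col4a6 (2780 base pairs) were in neither list. These 4 genes encode the chains of kidney glomerulus, smooth muscle and other specialised membranes. The lower call thus covered 1 of 3 pairs. By place, 2 of 6 collagen IV genes held a lower peak (33.3%, 4.33 to 77.7%), against 38.2% of protein-coding genes with a peak. Away from the starts, the 3 other peaks of Col4a1 and Col4a2 were unlisted, as were 4 peaks further inside Col4a3.

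By place, 5 of 11 laminin genes had a lower peak (45.5%, 16.7 to 76.6%), against 38.2% of protein-coding genes with a peak, and 7 of their 43 peaks were lower (16.3%, 6.81 to 30.7%), against 21.9% of peaks in protein-coding genes. Lama1, Lamb1 and Lamc1, whose products make up the laminin of the early embryo, had 3, 5 and 1 peaks, all in neither list, and the Lama1 peak centred 95 base pairs outside one end of the gene was 4490 base pairs wide. Lama3, which encodes a chain of epithelial junctions, had a lower promoter peak of 1261 base pairs at −67 with 7 unlisted peaks, and Lamb3, also epithelial, had as its only peak a lower one in intron 11 of 22. Lama5 had 1 peak, lower, of 629 base pairs at +241. Lamc3 had 3 lower peaks of 4, at +64, +6578 and +14764 base pairs (806, 1737 and 880 base pairs wide). Lamb2 had an unlisted TSS peak of 2915 base pairs and a lower one of 3189 towards its other end, named for Usp19. Lama2 (7 peaks) and Lama4 (4 peaks) had none lower. Of the multiplexins, the collagens that bridge basement membrane to stroma, Col15a1 had a lower peak at +761 in a CpG island and Col18a1 had 0 of 2.

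Both fibrillin genes had a lower TSS peak with no other lower one. It measured 2458 base pairs at +298 for Fbn1 (chromosome 2, 125504912 to 125507369) and 2807 base pairs at −348 for Fbn2 (chromosome 18, 58208871 to 58211677). The other 3 peaks of Fbn1 and 6 of Fbn2 were unlisted. With only 2 fibrillin genes the share is wide open (100%, 15.8 to 100%), against 38.2% of protein-coding genes with a peak. Among FACIT collagens, Col16a1 had both of its peaks lower, a promoter peak of 2881 base pairs at −810 (chromosome 4, 130045590 to 130048470), the widest promoter peak of the 12, and one of 631 at +3735. Col9a3 had a lower peak at +141 in a CpG island. The lower peak of Col22a1, of 636 base pairs, was in an L1Md_T element that the authors' annotation calls intergenic and that lies inside the RefSeq gene, and 4 other peaks there were unlisted. Col12a1 (4 peaks), Col19a1 (5), Col14a1, Col9a1 (2 each) and Col9a2 (1) had none lower, and Col20a1 had no peak. By place, 3 of the 8 FACIT genes that held any peak held a lower one (37.5%, 8.52 to 75.5%), against the same 38.2%.

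By place, 4 of the 7 network, beaded and anchoring collagen genes that held any peak held a lower one (57.1%, 95% exact interval 18.4 to 90.1%), and 3 of 5 membrane-bound and further collagen genes (60%, 14.7 to 94.7%), against 38.2% of protein-coding genes with a peak. Col8a2, a collagen of the corneal and vascular matrix, had 3 lower peaks of 4, of 2919, 1238 and 1573 base pairs at +839, +10122 and +14685. Its relative Col8a1 had 2 unlisted peaks. The membrane collagens Col13a1 and Col23a1 had lower TSS peaks of 1710 and 1495 base pairs at +627 and +370. A further intergenic lower peak of 1610 base pairs named for Col13a1 lay 64.6 kb away, outside the gene. Col23a1 had 9 peaks, of which 2 more were lower, 180 and 275 kb into the gene and named for Phykpl. Col26a1 had 1 lower of 8, an intronic peak of 2969 base pairs at +23094. Of the collagen VI genes, Col6a1 and Col6a3 had no peak, Col6a6 had 2 unlisted peaks, and a lower peak of 501 base pairs named for Col6a5 lay in an exon of Col6a4. A lower peak at the far end of Col6a2 was named for Ftcd, and one inside Col7a1, the anchoring fibril gene of skin, for Ucn2. Col17a1 had 5 peaks and Col25a1 had 4, none lower, and Col10a1 and Col28a1 had no peak.

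Of all 19 Adamts genes, each with a peak, 12 had a lower one by place (63.2%, 38.4 to 83.7%), against the same 38.2%. Of the proteoglycan-cleaving members, Adamts8 (1332 base pairs at +592), Adamts15 (2596 at +548) and Adamts20 (2277 at +262) had a lower TSS peak, and the genes Adamts15 and Adamts8 are neighbours, 20.1 kb apart. Adamts4 had a lower peak of 3192 base pairs in exon 8 of 9, the widest of the 50, beside an unlisted TSS peak of 6649 base pairs. Adamts1 and Adamts5 had 1 unlisted peak each, and Adamts9 had 9 with 0 lower, the widest of them (4238 base pairs) at +1138. Adamts7, which cleaves a cartilage oligomeric matrix protein, had a lower promoter peak of 2851 base pairs at +29 (chromosome 9, 90161582 to 90164432) and a lower one near its other end, whereas Adamts12, which shares that substrate, had 1 unlisted peak. Adamts16, Adamts17 and Adamts18 had lower peaks within 1 kb of the TSS, of 1008, 1754 and 1282 base pairs. Adamts10 and Adamts6, linked to fibrillin microfibrils, had 2 unlisted peaks each. The lower peak named for Adamts19 was in an L1Md_T element at −31855 base pairs, and the 2 peaks inside that gene were unlisted. Another lower peak named for Adamts15, in an RMER1A element, lay 128 kb from its TSS. At Adamts13, the von Willebrand factor protease, a lower peak of 3224 base pairs lay at the far end, next to the TSS of Cacfd1.

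**Figure D2:**
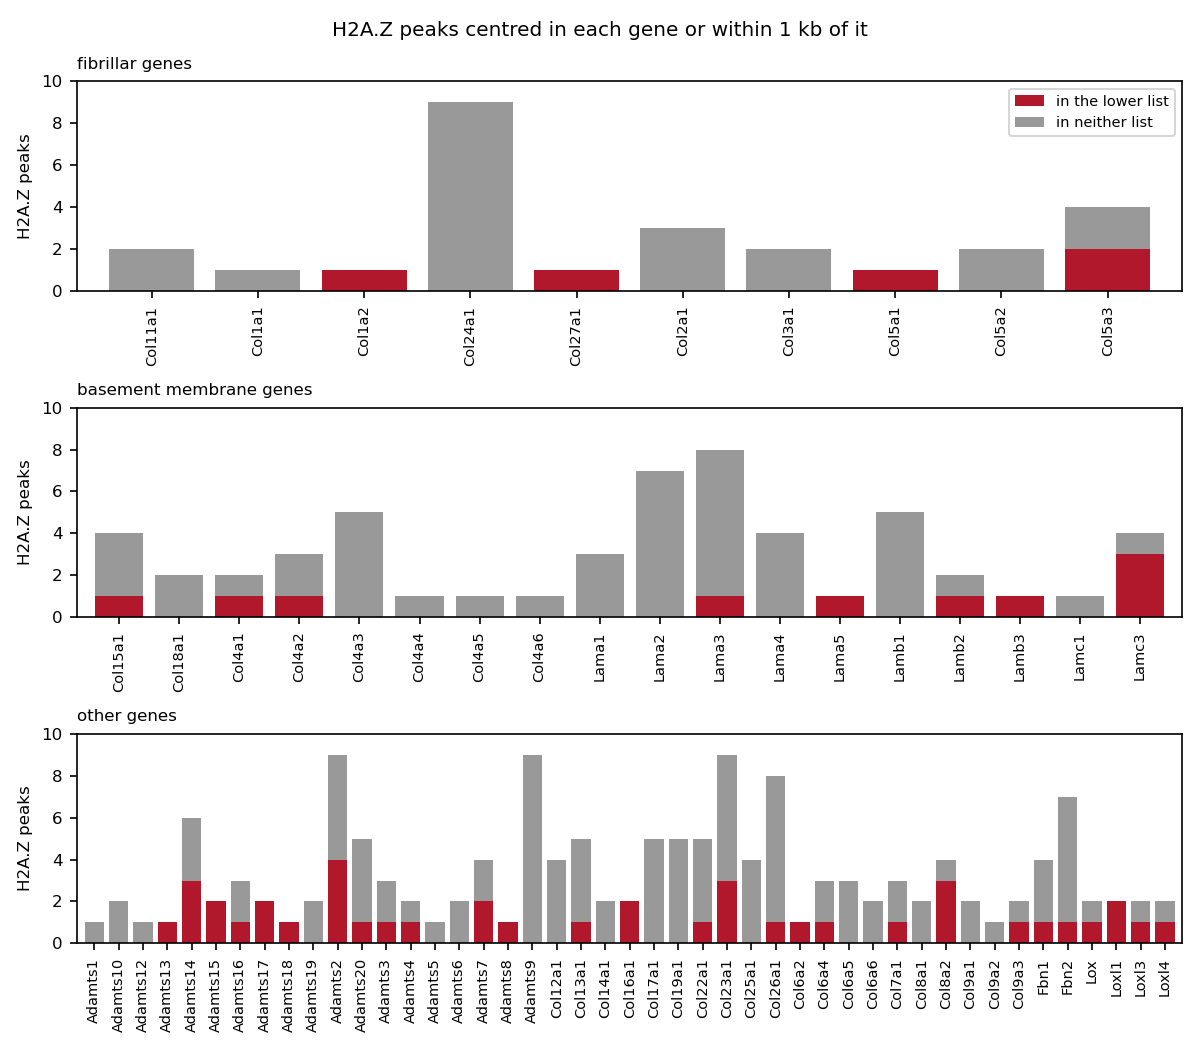
Bars give, for 73 collagen and matrix genes with a peak, the number of H2A.Z peaks centred in the gene or within 1 kb of it, with peaks of the lower list in red and peaks in neither list in grey; the panels are the 3 classes. Adamts2 has 4 lower peaks of 9, Adamts9 and Col24a1 have 0 of 9, and no bar holds a higher peak.

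The name given by the annotation and the place of the peak differed in part. Of the 50 lower peaks, 42 were centred in the gene they name or within 1 kb of it and 8 were not, of which 2 were inside another protein-coding gene, such as that of Col6a5 in Col6a4. Counted by place instead, 56 lower peaks lay in member genes, and 13 of these were named for a gene outside the set, such as Zfp354c, Tbata, Phykpl and Usp19. They touched 40 genes.

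Over the whole family, 38 of the 81 genes that the rule finds in the RefSeq table were named in the lower list (46.9%, 95% exact Clopper-Pearson interval 35.7 to 58.3%), against 26.5% of all 21900 protein-coding genes. The shares were 6 of 11 for fibrillar genes (54.5%, 23.4 to 83.3%), 7 of 19 for basement membrane genes (36.8%, 16.3 to 61.6%) and 25 of 51 for the others (49.0%, 34.8 to 63.4%). The 6 fibrillar genes include Col1a1 and Col11a1, whose named lower peaks lay outside the gene. All these intervals cover counting only, treat genes as independent, and overlap between the classes. By place, 40 of the 74 member genes that held any peak held a lower one (54.1%, 42.1 to 65.7%), against 38.2% of protein-coding genes with a peak. These were 4 of 10 fibrillar genes (40%, 12.2 to 73.8%), 8 of 19 basement membrane genes (42.1%, 20.3 to 66.5%) and 28 of 45 others (62.2%, 46.5 to 76.2%). The order of the classes thus differed from that by name, with fibrillar genes near the 38.2%. Member genes are long, with a median of 107 kb against 17.1 kb, and had a median of 2 peaks against 1. With 1 peak, 9 of 18 member genes had it lower (50%, 26 to 74%), against 30.3% of protein-coding genes with 1 peak. With 2 to 3 peaks the shares were 16 of 30 (53.3%, 34.3 to 71.7%) and 46.0%, and with 4 or more they were 15 of 26 (57.7%, 36.9 to 76.6%) and 55.7%. The share in the members was thus near the background wherever a gene had several peaks.

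Counted over peaks rather than genes, the members were close to the background. Of the 233 peaks in member genes, 56 were lower (24.0%, 18.7 to 30.0%) and 177 were in neither list, against 21.9% lower over all peaks in protein-coding genes and 14.8% over the whole set. The fibrillar genes held 5 lower of 26 peaks (19.2%, 6.55 to 39.4%), the basement membrane genes 9 of 59 (15.3%, 7.22 to 27%) and the others 42 of 148 (28.4%, 21.3 to 36.4%), led by 20 of 57 at Adamts genes (35.1%, 22.9 to 48.9%) and 5 of 8 at lysyl oxidases (62.5%, 24.5 to 91.5%). Higher peaks make up 0.518% of the set. The members held 0 of the 318, which allows up to 0.943% of the higher list, taking 3 counts as the limit in place of the exact interval. That limit is a share of the list and does not compare with the 0.518%. The members were 0.551% of the lower list, which is below the limit. Of the 26 member genes with 4 or more peaks, 0 had all of them lower and 11 had none lower. The share with any lower peak was 57.7%, near the 55.7% of protein-coding genes with 4 or more peaks. Among the 11 were Adamts9, Col24a1, Lama2, Lamb1, Col17a1, Col19a1, Col4a3, Col12a1, Col25a1 and Lama4. A further 13 genes with 1 to 3 peaks had all of them lower, among them Col1a2, Col5a1, Col27a1, Lama5, Col16a1 and Loxl1. For genes with 1 peak, 9 of 18 members had it lower (50%, 26 to 74%), against 30.3% of protein-coding genes with 1 peak. For 2 to 3 peaks, the share of all genes with every peak lower was not counted.

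The share of peaks listed as lower was larger at the start of the member genes than further inside, as it was over all genes, and this is given as a description with no test. In the authors' annotation 12 of the 50 peaks were in promoters (24.0%, 13.1 to 38.2%), 31 were intragenic (62.0%, 47.2 to 75.3%) and 7 intergenic (14.0%, 5.82 to 26.7%), where the whole lower list has 18.9%, 51.7% and 29.4%. The intragenic peaks comprised 17 in introns, 11 in exons, 2 in 5′ UTRs and 1 in a 3′ UTR. Fibrillar genes had 4 promoter, 0 intragenic and 2 intergenic peaks, basement membrane genes 3, 6 and 1, and the others 5, 25 and 4. The annotation's promoter class is narrow, however. Of the 31 intragenic peaks, 15 were centred within 1 kb of the TSS, so that 27 of 50 peaks (54.0%, 39.3 to 68.2%) were at a start, against 38.3% of the lower list. Of the 7 intergenic peaks 5 lay in repeats, 3 of them in young L1 elements (L1Md_T or L1Md_A). The share in repeats over all intergenic peaks of the lower list was not counted, so these numbers describe no trait of the members.

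For a share with a denominator, the 52 member genes with an entry in the RefSeq promoter table were used. A peak centred within 1 kb of the gene's own TSS was lower in 18 of 38 cases (47.4%, 31.0 to 64.2%), against 30.9% for all protein-coding genes in that table. Elsewhere in the gene it was lower in 20 of 107 cases (18.7%, 11.8 to 27.4%), against 17.1%. The same order of TSS above internal peaks held in fibrillar genes (4 of 6 and 1 of 14), basement membrane genes (4 of 11 and 2 of 19) and the others (10 of 21 and 17 of 74). Within the others, network, beaded and anchoring collagens ran the other way, with 1 of 5 at the TSS (20%, 0.505 to 71.6%) and 5 of 13 elsewhere (38.5%, 13.9 to 68.4%). So did lysyl oxidases, with 0 of 1 at the TSS and 1 of 1 elsewhere. The numbers in each class are small and a peak over the start of 2 genes counts for both. Of the other 29 genes, 15 have a TSS that could be read from the authors' distances, which exist only for genes with a named lower peak, so they were left out of these shares.

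**Figure D3:**
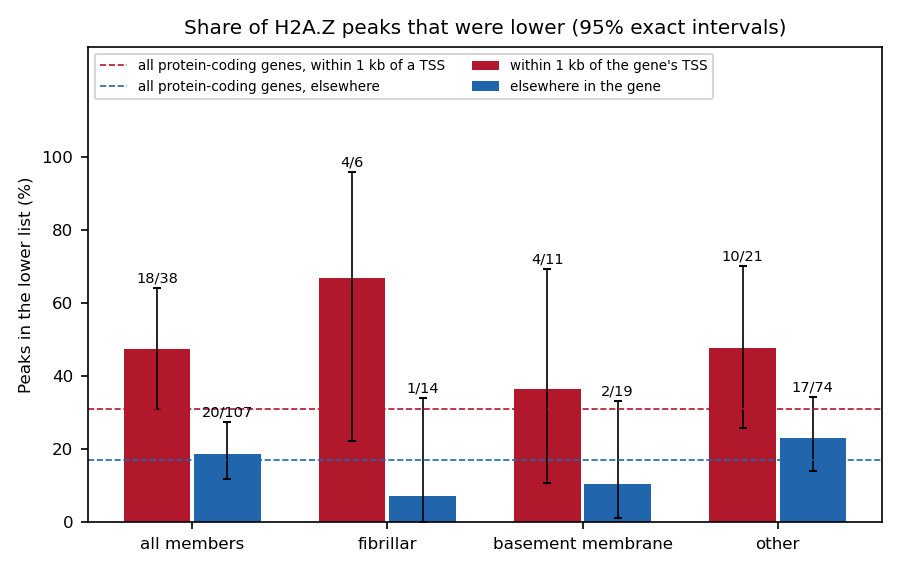
Bars show the percentage of H2A.Z peaks that were in the lower list, within 1 kb of the gene's own TSS (red) and elsewhere in the gene (blue), for the 52 genes with a promoter entry and for each class, with 95% exact intervals and the counts above; dashed lines are all protein-coding genes, at 30.9% and 17.1%. Red stands above blue in each class, at 47.4% and 18.7% over all members.

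At the start of these genes, the widths of lower and unlisted peaks overlapped. The 50 lower peaks had a median width of 1320 base pairs, against 1034 over the whole lower list, with 4 of them at 501. The medians were 1096 base pairs for fibrillar, 1208 for basement membrane and 1534 for the other genes, and 2070 for promoter, 1307 for intragenic and 640 for intergenic peaks. The 5 widest promoter peaks were those of Col16a1, Col27a1, Adamts7, Fbn2 and Adamts15. Within 1 kb of the TSS, in genes with a promoter entry, lower peaks had a median of 1794 base pairs (quartiles 1509 and 2420) and unlisted ones 1738 (1023 and 2814). Over all protein-coding genes these medians were 1290 and 1295. Elsewhere in the gene the medians were 988 and 808 base pairs in the members, and 1041 and 922 over protein-coding genes. Peak height is unknown.

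**Figure D4:**
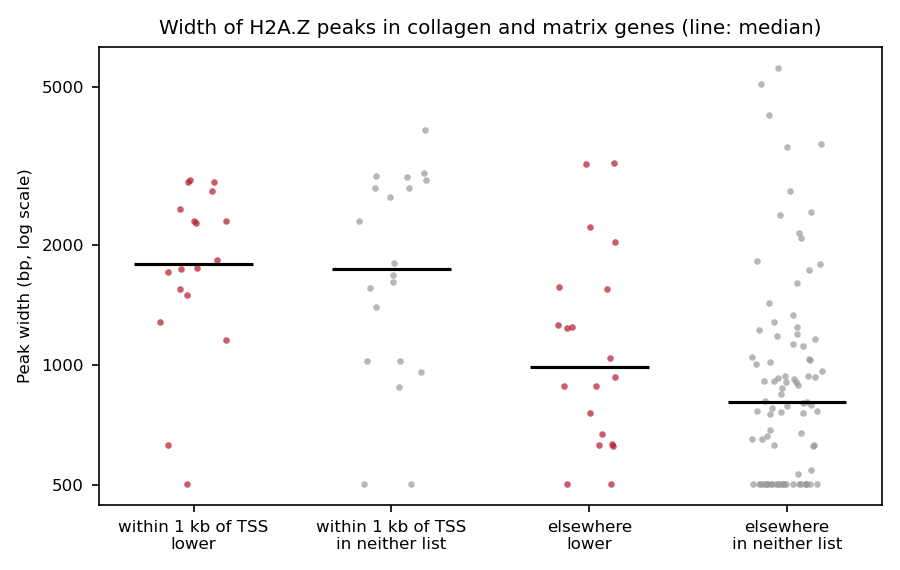
Each point is 1 peak of 1 of the 52 genes with a promoter entry, by its width in base pairs on a log scale, split by place and by list; lines are medians. The TSS groups overlap over nearly their whole range, with medians of 1794 and 1738 base pairs, and peaks elsewhere are narrower, at 988 and 808.

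The promoters under lower peaks had a higher median G+C and CpG content than those under unlisted peaks, as a description with no test. Of 56 RefSeq promoter windows of the 52 genes, 18 had a lower peak centred within 1 kb of the TSS, 20 an unlisted one and 18 none. The last group includes the windows of Adamts9 and Col9a2, where an unlisted peak centred further inside the gene reached over the TSS. Median G+C content was 69.8% (quartiles 62.1 and 74.2), 60.2% (56.2 and 63.4) and 56.5% (48.0 and 59.3). Over all protein-coding genes the corresponding medians were 64.3%, 59.3% and 50.7%. The ratio of observed to expected CpG was 0.722, 0.48 and 0.208 in the members and 0.736, 0.72 and 0.283 over all genes, so the gap between members and all genes was widest for promoters with an unlisted peak. Adamts2, Adamts3 and Adamts20, each with a lower peak, were at 77.3% G+C. The order was not strict, as Adamts14 (76.7%) and Loxl4 (75%) had unlisted peaks, and Col15a1 (52.3%) a lower one. The part of base composition in which peaks were listed was not tested.

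Strand asymmetry was measured as well. GC skew, the excess of G over C on the coding strand, which marks many R-loop-forming promoters downstream of the start, had a median of −0.03 in members with a lower peak, 0.05 with an unlisted one and 0.04 with none, and of 0.02, 0.01 and 0.02 over all genes. It was above 0 in 8 of 18 (44.4%), 14 of 20 (70.0%) and 10 of 18 (55.6%) member windows, and these last 18 belong to 16 genes. Over all promoters the shares above 0 hardly differed, at 53.4%, 53.4% and 53.7%. Fbn1 (0.35) was at the high end of the members with a lower peak, and Adamts18 (−0.23) and Adamts2 (−0.19) at the low end. The window holds only 50 bases past the TSS. A GC box was found in 15 of 18 (83.3%), 14 of 20 (70.0%) and 7 of 18 (38.9%) member windows. Over all promoters with a lower, an unlisted and no peak centred within 1 kb, the shares were 70.0%, 59.1% and 30.9%. A TATA motif was in 1, 1 and 4 member windows (5.47%, 6.91% and 18.3% of all), and a CCAAT box in 8, 7 and 2 (31.8%, 38.4% and 39.9% of all).

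**Figure D5:**
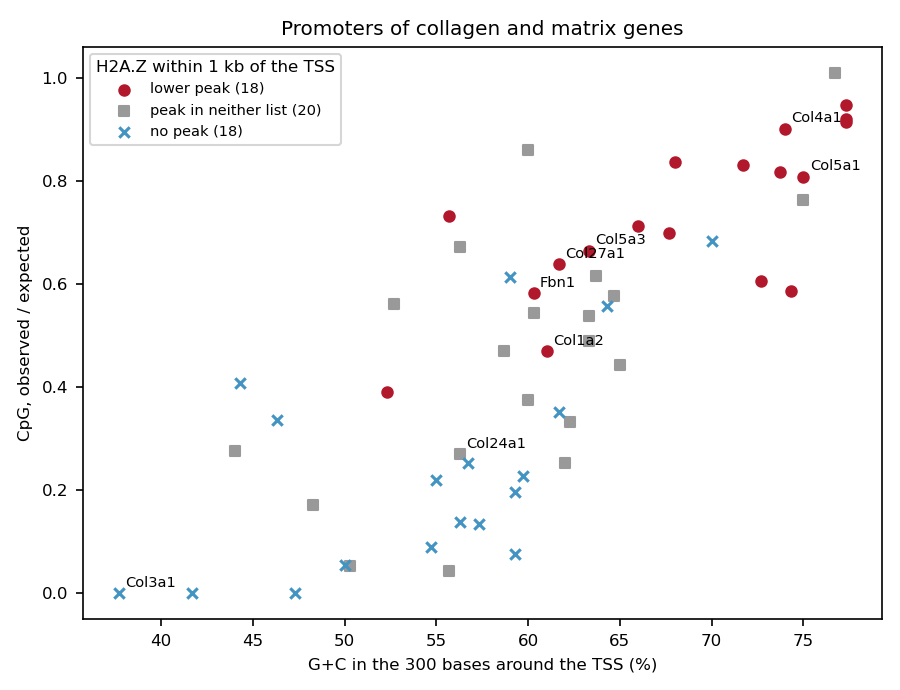
Each point is 1 of 56 promoter windows of 300 bases, by G+C content (%) and observed over expected CpG. Marks give the H2A.Z peak centred within 1 kb of the TSS, and the 8 printed promoters are labelled. Windows with a lower peak crowd the upper right, with medians of 69.8% and 0.722, and Col3a1 lies at the lower left.

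Lists of other matrix genes fell on both sides of the 38.2% of protein-coding genes with a lower peak among those with any. The genes named have the most lower peaks or the widest. Of genes for collagen synthesis and processing, 6 of 17 with a peak had a lower one (35.3%, 14.2 to 61.7%). They included the prolyl hydroxylases P4ha2 and P4ha1, the lysyl hydroxylase Plod3 and the protease Tll2, each at the TSS. Of other basement membrane genes 5 of 10 had one (50%, 18.7 to 81.3%), among them Fras1 and Smoc1 with 2 each, Smoc2 and Npnt. Of elastic fibre and linker genes 6 of 13 had one (46.2%, 19.2 to 74.9%), led by Ltbp3 with 4 of 4 and Ltbp2 with 3 of 6, genes of latent TGF-beta binding proteins, with Fbln2 at 2 of 2 and Emilin1 with 1 peak of 9959 base pairs. Of collagen and laminin receptors 5 of 11 had one (45.5%, 16.7 to 76.6%), with Itgb4 (3 of 6 peaks), Itga3, Itga11 and Itga6, all integrin subunits. Metalloproteinases and their inhibitors had 10 of 16 (62.5%, 35.4 to 84.8%), led by Mmp15, Mmp25, Mmp14 and Mmp28. Of Adamts-like genes 4 of 5 had one (80%, 28.4 to 99.5%), with Adamtsl5, Adamtsl4 and Adamtsl3 at the TSS and Adamtsl1 at 1 of 21 peaks. None of these lists held a higher peak.

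Cell identity could not be checked, since the files hold positions and no RNA. Of 6 pluripotency markers, 2 had a peak by place (Esrrb with 4 and Klf4 with 1), and 0 were lower, although Klf4 was named in the lower list for intergenic peaks. Of 9 fibroblast markers, which include Col1a1, Col1a2 and Col3a1, 7 had a peak and 5 a lower one (71.4%, 29 to 96.3%). Of 10 endoderm markers, which include Lama1, Lamb1, Lamc1, Col4a1 and Col4a2, 10 had a peak and 6 a lower one (60%, 26.2 to 87.8%). These intervals, and that for 0 of 2 (0 to 84.2%), all include the 38.2% of protein-coding genes. The mix of cells in each library was not tested.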

How the data were processed

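The authors annotated both lists with HOMER annotatePeaks on mm10, per the file headers. GRCm38, deepTools, HOMER, Picard, Bowtie2 and Trimmomatic stand in the submitters' processing notes without a role. For the peak caller, the test and threshold behind the lists and any pooling, information was not given in the sources used here. The deposited peak score is 0 throughout and was not used. Of the 56 libraries labelled, for 10 targets, the files analysed here concern the 8 for H2A.Z. Starts are printed counting from 1.

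Members and gene lists were chosen with earlier results of these data known. Every listed peak matched a peak of the set exactly, and the rest are called unlisted. Genes came from RefSeq (GRCm38.p6; 81 member genes), and TSSs from its promoter table (52 members) or, for 15 members, from the authors' distances where these met an end of the gene within 2 kb. A peak belongs to a gene if its centre lies in it or within 1 kb. Fibrillar and basement membrane genes with a lower peak are named, except 1 member gene that is not reported here singly or drawn and is kept in the totals. Other members were named by most lower peaks, the 5 widest promoters and genes with at least 4 peaks, and the remaining members were added, with their values seen, so that the others are accounted for. Without values per library no test was run. Shares have 95% Clopper-Pearson intervals. The counting step was tested on simulated peaks. Counting used pandas 2.3.3 and SciPy 1.17.1 under Python 3.11.15, with figures by matplotlib 3.10.9.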

Additional observations from a re-analysis of the deposited data

How the results depend on the processing

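Of 23 alternative counts or shares, 19 stayed within 1.5 times the reported count or within the interval of the reported share. Among these, the number of lower peaks was 43 to 56 and of genes 34 to 40 under the other definitions of a member, and the lower share of peaks in member genes was 23.2 to 27.2% over gene windows, the overlap rule, widths above the minimum and, added after the data were seen, without peaks at the TSS of another gene. Some of the 19 could not have moved. Leaving out chromosome X could change no count, since Col4a5 and Col4a6 there have 0 named lower peaks. The same holds for moving Col7a1, with 0, to the basement membrane class. Moving Col15a1 and Col18a1 to the others could not change the fibrillar count. The remaining 4 of the 23 concern the definition of a promoter. Taken as peaks within 1 kb or within 3 kb of the TSS, promoter peaks numbered 27 in place of 12 and intragenic peaks 16 in place of 31, since the annotation puts 15 peaks near the TSS in introns, exons or UTRs. Leaving out replicates was not run, and peak height and depth are unknown. No paired analysis was possible because the lists hold no value per library.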
